A study of Bos taurus with 8 samples.

Results

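The 9 genes described here mark the contractile cells of blood vessel walls: the smooth muscle genes ACTA2, TAGLN, MYH11, CNN1, MYL9 and MYLK, and the genes RGS5, PDGFRB and NOTCH3 of pericytes and other mural cells. They were measured in muscle of 2 well-marbled cattle breeds set against a lean breed. A gene was followed through non-control array probes whose RefSeq transcript belongs to it. Of the 9 genes, 7 matched a probe, 1 probe each and each printed in 2 spots, among 7788 genes with a named probe in all. All 7 were well above background in 16 of 16 channel readings, where a minimum of 4 readings was required. PDGFRB and NOTCH3 matched no probe and were not analysed here, so RGS5 alone stood for the pericyte side.

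The samples were total RNA of the semitendinosus, a hind limb muscle, from 12 bulls aged 15 months. They fell into 4 Hereford bulls, 4 Holstein-Friesian bulls and 4 Limousin bulls, with no treatment named. Each of 8 two-colour Agilent arrays carried 1 marbled bull and 1 Limousin bull, and each Limousin bull was set once against each marbled breed. The Hereford RNA took the dye Cy5 on every array of its slide. On the other slide the Holstein-Friesian RNA took Cy3, and Limousin had the opposite dye each time, so breed cannot be told apart from slide and dye in the array ratios.

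Smooth muscle cells and pericytes wrap the endothelium and set the width of arteries, venules and capillaries. Their contraction turns on when myosin light chain kinase (MYLK) phosphorylates the regulatory light chain (MYL9) of smooth muscle myosin (MYH11), which then pulls on filaments of smooth muscle actin (ACTA2). Calponin (CNN1) and transgelin (TAGLN) bind those actin filaments. RGS5 shortens the signal of G protein-coupled receptors that drive constriction, PDGFRB receives the growth factor that recruits pericytes, and NOTCH3 is a receptor of the mural cell surface. In whole muscle these cells are a small share beside the fibres. In such bulk samples, fewer cells of a type and less RNA per cell cannot be told apart.

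The signal was checked first. After subtraction of the local background, the middle probe of an array had 97.2 to 140 intensity units in the Hereford channel (Cy5). The Holstein-Friesian channel (Cy3) was dimmer, at 30.5 to 46.8 units. The Limousin channel gave 63.5 to 88 units in Cy3 and 97 to 118 units in Cy5. Arrays carried 6 to 29 outlier spots and 0 saturated ones, and the number of arrays limits the precision. All 8 measured genes of the skeletal fibre list, among them the fibre actin ACTA1 and creatine kinase CKM, were above background in every reading. So were all 12 measured fibroblast genes and 12961 of the 17061 tested probes, so this does not tell muscle from another tissue. Among the markers, the net signal of RGS5 lay at 121 to 305 units for the Hereford bulls, at 32.5 to 66.5 units for the Holstein-Friesian bulls and at 29 to 152 units for the Limousin bulls. The 2 spots of a probe differed by at most 0.23 on the log2 scale.

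CNN1, MYL9 and RGS5 rose in Hereford muscle against Limousin, while the other markers did not pass the test. In the limma fit over all 8 arrays, CNN1 was higher by 1.09 log2, MYL9 by 0.83 and RGS5 by 0.77, or 2.12-fold, 1.77-fold and 1.70-fold. That makes 3 of 7 markers called, all higher, where 3.39% of 17061 probes were called higher and 7.14% in either direction. ACTA2, TAGLN, MYH11 and MYLK lay between -0.17 and 0.19 log2. The median of the 7 was 0.19 log2, against 0.01 over all probes. CNN1, MYL9 and RGS5 were above 0 on 4 of 4 Hereford arrays, which held for 3 of 7 markers and for 13.7% of all probes.

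**Figure D1:**
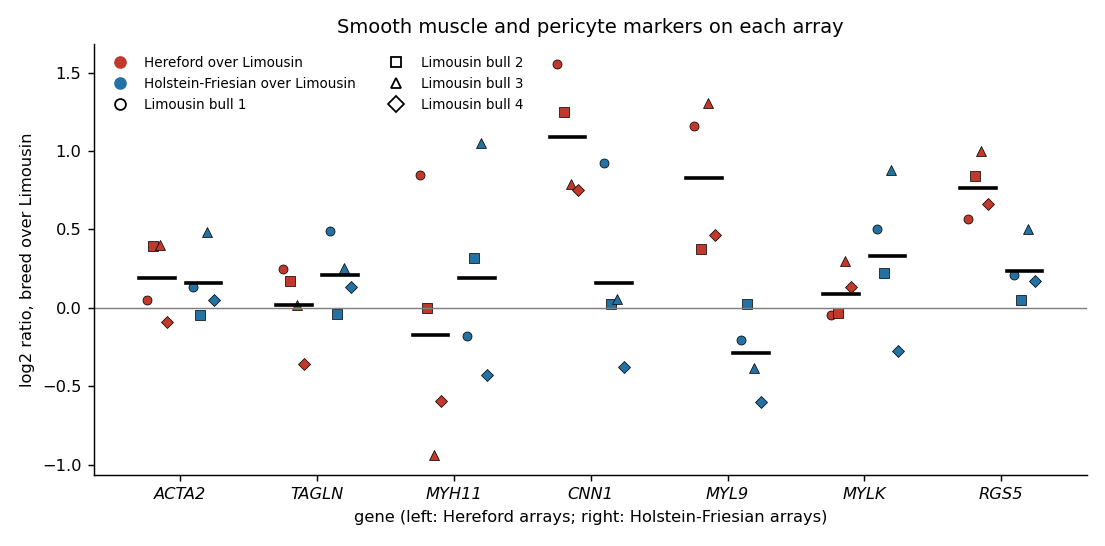
Log2 ratio of breed over Limousin (y axis) for each measured marker (x axis), with 1 point for each array, Hereford left and Holstein-Friesian right, the symbol naming the Limousin bull and the bar the mean of 4 arrays. CNN1, MYL9 and RGS5 lie above 0 on all 4 Hereford arrays, and MYH11 spreads from -0.94 to 0.85 on the same arrays.

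MYL9 is the light chain whose phosphorylation starts contraction. Its log2 ratio of Hereford over Limousin was 1.16, 0.38, 1.30 and 0.46 on the arrays of Limousin bulls 1, 2, 3 and 4 (mean 0.83, SD 0.47, limma adjusted p = 0.0305, 95% confidence interval 0.43 to 1.22). The normalized level of MYL9 was 12.06, 11.94, 12.20 and 12.13 log2 units in the 4 Hereford bulls. In the Limousin bulls it was 10.90, 11.57, 10.90 and 11.66 when read in Cy3, and 10.86, 11.32, 10.67 and 11.61 when read in Cy5. Every Hereford bull therefore lay above every Limousin reading in both dyes, as was the case for CNN1. This made 2 of 7 markers, with 3.92% of all probes in the same position. The Hereford bulls were also close together, with an SD of 0.11 in MYL9 level against 0.41 (Cy3) and 0.43 (Cy5) in Limousin.

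MYLK, the kinase that acts on MYL9, did not pass the test. Its log2 ratio was -0.05, -0.03, 0.30 and 0.13 on the Hereford arrays (mean 0.09, SD 0.16, limma adjusted p = 0.814), with a 95% interval of -0.29 to 0.46. ACTA2, the thin filament actin, had log2 ratios of 0.05, 0.39, 0.40 and -0.09 (mean 0.19, SD 0.25, limma adjusted p = 0.364). The interval for ACTA2 ran from -0.07 to 0.45, so an increase of up to 1.36-fold lies inside it. MYH11, the smooth muscle myosin heavy chain, had the largest SD of the 7 markers in Hereford, at 0.85, 0.0015, -0.94 and -0.59 on the 4 Hereford arrays (mean -0.17, SD 0.78, limma adjusted p = 0.811). Its level was 9.45, 8.94, 7.85 and 9.01 log2 units in Hereford, so that 1 Hereford bull lay below all others. The 95% interval of MYH11 ran from -0.89 to 0.55, and leaving out replicate 3 turned its mean to 0.085.

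Of the actin-binding pair, CNN1 passed and TAGLN did not. CNN1 had log2 ratios of 1.56, 1.25, 0.79 and 0.75 on the Hereford arrays (mean 1.09, SD 0.39, limma adjusted p = 0.0254, 95% interval 0.60 to 1.57). Only 0.446% of probes had a higher Hereford ratio than CNN1. TAGLN had log2 ratios of 0.25, 0.17, 0.02 and -0.36 (mean 0.02, SD 0.27, limma adjusted p = 0.945, 95% interval -0.25 to 0.29). The TAGLN direction was not fixed, at -0.018 log2 with processed signals and -0.056 without replicate 1. CNN1 levels were 10.56, 10.74, 9.84 and 10.48 log2 units in Hereford, against 8.998, 9.49, 9.05 and 9.73 in Limousin in Cy3 and 8.97, 9.29, 8.97 and 9.54 in Cy5. The lowest Hereford bull of CNN1 thus lay just above the highest Limousin reading.

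RGS5, the pericyte gene, had the smallest p of the 7 markers in Hereford. Its log2 ratio was 0.56, 0.84, 1.00 and 0.67 on the Hereford arrays (mean 0.77, SD 0.19, limma adjusted p = 0.00816, 95% interval 0.55 to 0.98). The levels of single bulls were 7.31, 8.04, 7.58 and 7.94 log2 units in Hereford, against 6.75, 7.20, 6.58 and 7.28 in Limousin in Cy3 and 6.95, 7.37, 6.52 and 7.37 in Cy5. The levels overlapped only in Cy5, where 2 Limousin bulls at 7.37 lay above the lowest Hereford bull at 7.31. With the processed signals of the scanner software the RGS5 ratio was 1.34 log2, against 0.77 with normexp and loess. It was 0.64 against 0.23 in Holstein-Friesian, and 0.99 against 0.50 in both marbled breeds together. The size of the RGS5 ratio thus depended on the processing.

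**Figure D2:**
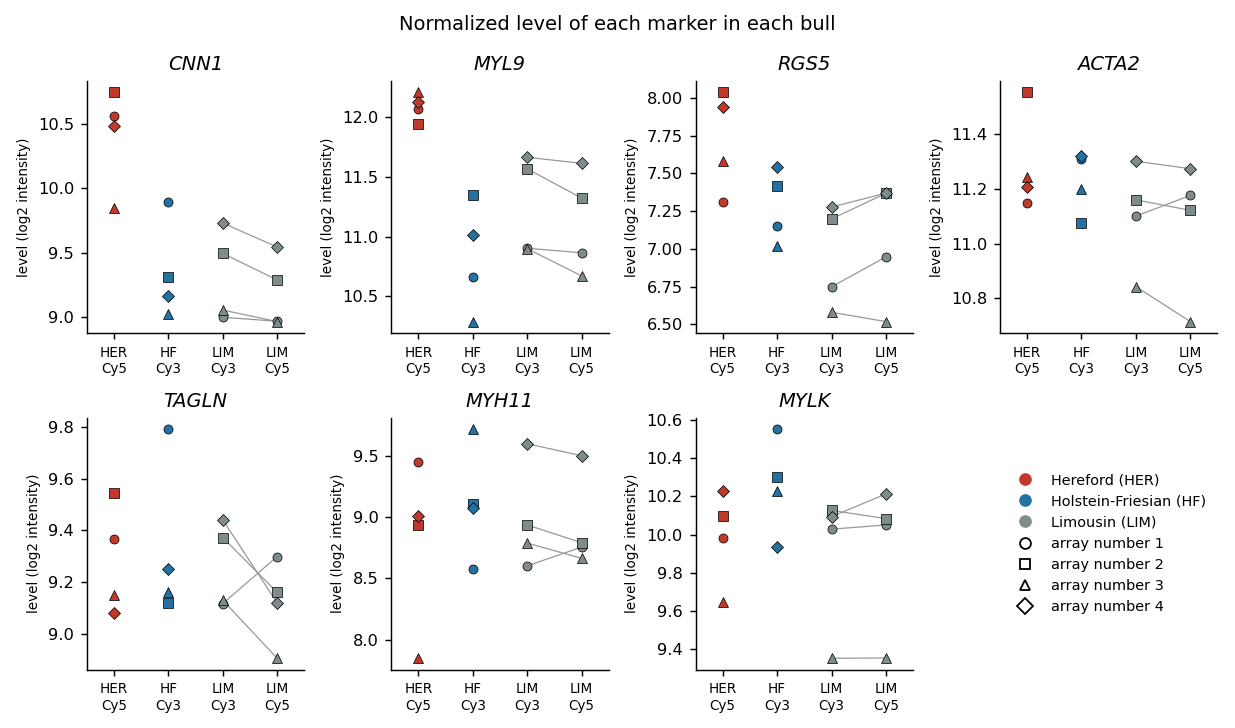
Normalized level (y axis, log2 intensity after loess and between-array scaling) of each marker in each bull, grouped by breed and dye on the x axis, with lines joining the Cy3 and Cy5 readings of 1 Limousin bull. The 4 Hereford bulls stand at 11.94 to 12.20 for MYL9 and 9.84 to 10.74 for CNN1, above all Limousin readings, while for the other markers breeds overlap, and levels are not comparable between panels.

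The dye allowed a second reading of the Limousin bulls. Hereford in Cy5 was set against the same Limousin bulls in Cy5 from the other slide. The Hereford readings were the same as before, and the comparison ran between slides and not within an array. CNN1 stood at 1.21 log2 (limma adjusted p = 0.0304), MYL9 at 0.97 (0.0276) and RGS5 at 0.67 (0.0227), so all 3 calls were also made with both breeds in 1 dye. When each Limousin bull was compared with itself, Cy5 minus Cy3, the 7 markers lay between -0.14 and 0.10 log2. None passed in limma (smallest adjusted p = 0.188), where 750 of 17061 probes were called, so none among 7 says little. CNN1 and MYL9 had an unadjusted limma p of 0.0432 and 0.0487.

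The 3 calls rested on all 4 replicates and on the pooled spread. Without replicate 2 or replicate 4 limma called none of the 7 (smallest adjusted p 0.0631 and 0.0653), without replicate 3 RGS5 alone, and without replicate 1 CNN1 and RGS5, while the ratios of the 3 genes stayed between 0.67 and 1.20 log2. With median centring MYL9 stood at 1.07 log2 and missed the threshold in limma (adjusted p = 0.0509), while CNN1 and RGS5 passed. From the Hereford arrays alone, RGS5 (0.0557), CNN1 (0.065) and MYL9 (0.115) missed the threshold in limma, where the number of called probes fell to 27, against 1218.

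**Figure D3:**
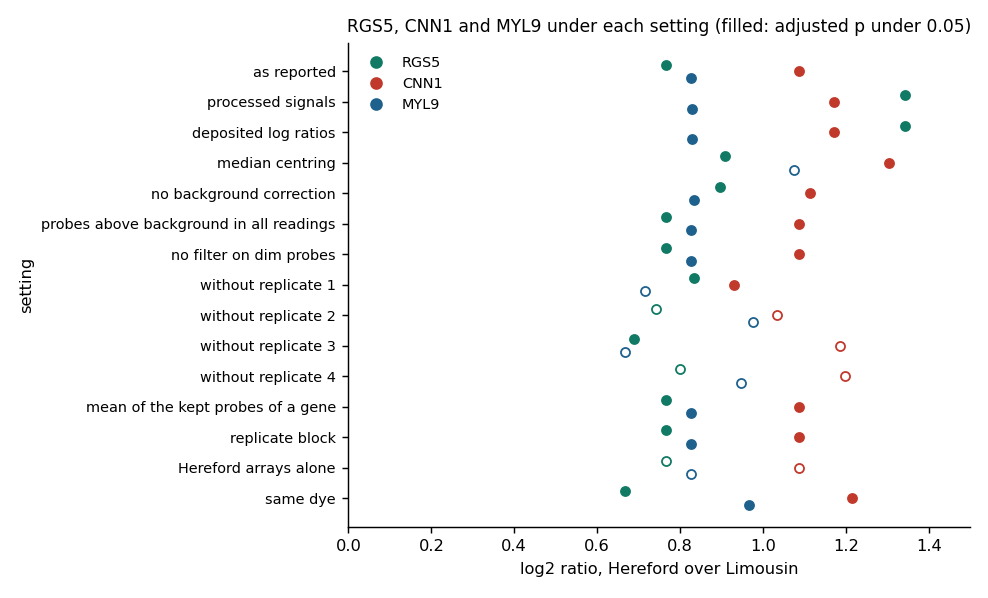
Log2 ratio of Hereford over Limousin (x axis) of RGS5, CNN1 and MYL9 under each processing setting or left-out replicate (y axis), filled where the limma adjusted p is under 0.05. All points lie between 0.67 and 1.34, and the open points lie in the settings without a replicate, with Hereford arrays alone and, for MYL9, with median centring.

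Against Limousin, no marker of the 7 passed in Holstein-Friesian muscle, where 6.45% of probes were called in limma (1 of the 7, RGS5, had an unadjusted p under 0.05, at 0.0386). Their median was 0.19 log2, against -0.01 over all probes, and their means ran from -0.29 for MYL9 to 0.33 for MYLK. RGS5 was above 0 on 4 of 4 arrays, as were 15.7% of all probes, at 0.21, 0.05, 0.50 and 0.17 log2 (mean 0.23, SD 0.19, limma adjusted p = 0.185). CNN1 stood at 0.93, 0.02, 0.06 and -0.38 log2 (mean 0.16, SD 0.55, limma adjusted p = 0.71). The CNN1 mean was -0.10 without replicate 1.

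The remaining markers spread to both sides of 0 on the Holstein-Friesian arrays. MYL9 stood at -0.20, 0.02, -0.38 and -0.60 log2 (mean -0.29, SD 0.27, limma adjusted p = 0.356). MYLK stood at 0.50, 0.22, 0.88 and -0.28 (mean 0.33, SD 0.49, limma adjusted p = 0.267) and MYH11 at -0.18, 0.32, 1.05 and -0.43 (mean 0.19, SD 0.65). ACTA2 (mean 0.15, SD 0.23) and TAGLN (mean 0.21, SD 0.22) were each above 0 on 3 of 4 arrays. With median centring in place of loess the median of all probes itself lay at -0.20, and 6 of the 7 markers were below 0, with RGS5 the exception and MYL9 called at -0.90 (limma adjusted p = 0.0196).

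Taking both breeds together, with 1 mean per Limousin bull, none of the 7 markers passed, where 0.598% of probes were called (RGS5 and CNN1 had unadjusted p-values of 0.00153 and 0.0187). RGS5 came nearest, at 0.39, 0.44, 0.75 and 0.42 log2 for the 4 bulls (mean 0.50, SD 0.17, limma adjusted p = 0.063). With the Limousin bull as a block over all 8 arrays, RGS5 passed (limma adjusted p = 0.0135). CNN1 had bull means of 1.24, 0.64, 0.42 and 0.19 log2 (mean 0.62, SD 0.45, limma adjusted p = 0.162). RGS5 and CNN1 were thus above 0 in 4 of 4 bulls, as were 13.1% of all probes, and the other 5 markers in 3 of 4, with Limousin bull 4 the one below 0 each time.

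In the mean of both dyes, Limousin bull 4 had the highest level of the 4 Limousin bulls for 7 of 7 markers. Bull 3 was the lowest for 5 of them. Bull 4 did not stand apart for every marker, as TAGLN in Cy5 was at 9.16 in bull 2 and 9.12 in bull 4. The share of all probes highest in bull 4 was not computed. The Limousin bulls spanned 0.26 log2 units for TAGLN and between 0.51 and 0.87 for the other 6, larger than the widest gap between the dyes of 1 bull, which was 0.12 to 0.24 in those 6. For TAGLN the dye gap reached 0.32, wider than the range over bulls. The arrays of bull 4 had the lowest mean ratio over the 7 markers in each breed. It was 0.14 log2 in Hereford and -0.19 in Holstein-Friesian, against 0.41 to 0.63 and 0.08 to 0.41 on the other arrays. Limousin is the divisor of these ratios, so they hold the same Limousin readings and are not a separate observation.

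**Figure D4:**
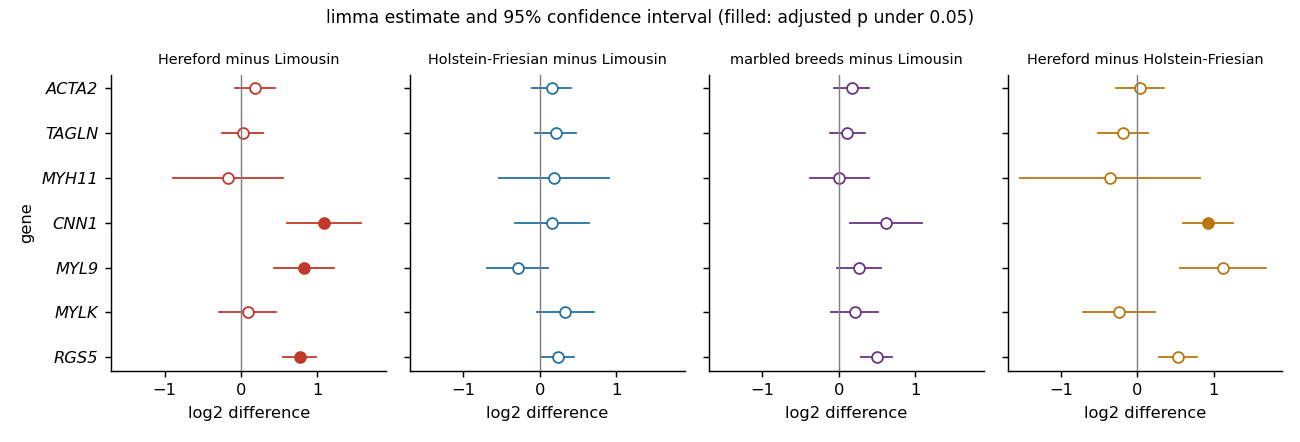
Log2 difference (x axis) of each marker (y axis) in the 4 comparisons, with its 95% confidence interval from limma, filled where the adjusted p is under 0.05. The filled points are CNN1 (1.09), MYL9 (0.83) and RGS5 (0.77) in Hereford minus Limousin, and CNN1 (0.93) in Hereford minus Holstein-Friesian.

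Set against each other through their shared Limousin bulls, Hereford was higher than Holstein-Friesian in CNN1. The difference was 0.63, 1.22, 0.73 and 1.13 log2 over the 4 Limousin bulls (mean 0.93, SD 0.29, limma adjusted p = 0.0384, 95% interval 0.60 to 1.26). CNN1 was the only one of the 7 markers called, where 2.07% of probes were called higher and 4.11% in either direction. With any 1 replicate left out CNN1 stayed at 0.83 to 1.03 log2 but did not pass in limma (adjusted p 0.0502 to 0.124). Its level in the Holstein-Friesian bulls was 9.89, 9.31, 9.02 and 9.17 log2 units, so that 1 Holstein-Friesian bull, at 9.89, lay above the lowest Hereford bull, at 9.84. MYL9 had a larger difference with more spread, 1.36, 0.35, 1.69 and 1.07 log2 (mean 1.12, SD 0.57, limma adjusted p = 0.0573). The MYL9 levels of the Holstein-Friesian bulls were 10.66, 11.34, 10.29 and 11.01 log2 units in Cy3. All lay below those of the Hereford bulls, read in Cy5 on the other slide. This held for 1 of 7 markers and for 9.54% of all probes. RGS5 differed by 0.36, 0.79, 0.50 and 0.49 log2 (mean 0.53, SD 0.18, limma adjusted p = 0.0525). These 3 genes stood higher in Hereford for 4 of 4 Limousin bulls, as did 19.3% of all probes, and all 3 passed with the Limousin bull as a block over 8 arrays (CNN1 with a limma adjusted p of 0.04, MYL9 of 0.0215 and RGS5 of 0.0244).

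The intervals of the other markers all included 0. ACTA2 differed by 0.03 log2 (95% interval -0.28 to 0.35), TAGLN by -0.19 (-0.52 to 0.14), MYLK by -0.24 (-0.71 to 0.22) and MYH11 by -0.36 (-1.54 to 0.82). A dye effect adds up in this difference. Read with each breed and its Limousin bulls in 1 dye, CNN1 stood at 1.19 log2 (limma adjusted p = 0.0474) and MYL9 at 1.40 (0.047), while RGS5 stood at 0.33 (0.215). That reading was chosen after seeing the data and ran between slides, so a slide effect adds up in it.

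A list of smooth muscle contraction and vessel wall genes had 28 of 57 measured, with a median of 0.03 log2 in Hereford and 0.02 in Holstein-Friesian against Limousin. In Hereford 1 of the 28 rose and 1 fell, a share close to the 7.14% of all probes called there. KCNMB1, the smooth muscle subunit of the large-conductance potassium channel, rose by 0.59 log2, with 0.47, 0.40, 1.10 and 0.39 on the 4 arrays (limma adjusted p = 0.0272; 0.76 and 0.0296 in 1 dye). VCL, the adhesion protein vinculin, fell by 0.73 log2 (limma adjusted p = 0.045). Several genes of smooth muscle filaments were near 0 or varied, such as ACTG2 at 0.29, LMOD1 at -0.30, MYH9 at 0.21 and SYNPO2 at -0.03, and did not pass.

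In Holstein-Friesian 2 of the 28 rose and 3 fell, where 6.45% of all probes were called. FBLN5, which organises elastic fibres, rose by 0.98 log2, with 0.92, 0.97, 0.79 and 1.24 on the arrays (limma adjusted p = 0.00288). PDLIM7 (-1.39), a PDZ-LIM protein of the actin cytoskeleton, VCL (-0.73) and the laminin receptor subunit ITGA7 (-0.36) fell. All 3 are also expressed by skeletal fibres. The FBLN5 rise passed in 12 of 13 alternative settings, while the VCL fall passed in 3 of 13 in Hereford and 7 of 13 in Holstein-Friesian. Set against Holstein-Friesian, Hereford was lower in FBLN5 by 1.03 log2 (limma adjusted p = 0.0305) and in LMOD1, the smooth muscle leiomodin, by 0.73 (0.0417). Neither passed when each breed was read in 1 dye (FBLN5 -0.59 with a limma adjusted p of 0.0971, LMOD1 -0.88 with 0.0543).

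Of the pericyte and mural signalling genes, 23 of 37 were measured, with medians of 0.15 log2 in Hereford and 0.02 in Holstein-Friesian. In Hereford 2 of the 23 rose and none fell, a share near the 7.14% of all probes called. ANGPT1, the ligand that mural cells make for the endothelial receptor TEK, rose by 1.20 log2, with 0.99, 1.01, 1.46 and 1.34 on the arrays (limma adjusted p = 0.0184; 1.13 and 0.0177 in 1 dye). HIGD1B, a gene found enriched in pericytes of mice, rose by 0.97, with 0.93, 0.88, 0.94 and 1.15 (limma adjusted p = 0.0302; 0.98 and 0.0602 in 1 dye). Its log2 ratio in Holstein-Friesian was 1.31, 0.69, -0.08 and 0.07. The pericyte channel KCNJ8 (0.62), the Notch target HEYL (0.74) and COX4I2 (0.32) did not pass in Hereford. In that breed 17 of the 23 were above 0 and 6 below. Among those below were PDGFRA (-0.47), DLL4 (-0.17), JAG1 (-0.17) and HEY2 (-0.09), none passing. Of the 23 genes, 0 passed in Holstein-Friesian in limma, where 6.45% of all probes were called, and 5 had an unadjusted p under 0.05. The ANGPT1 rise passed in 9 of 13 alternative settings, that of HIGD1B in 8 of 13 and that of KCNMB1 in 7 of 12. MCAM, a mural and endothelial adhesion molecule, was higher in Hereford than in Holstein-Friesian by 1.25 log2 (limma adjusted p = 0.0341), and by 0.80 in 1 dye (0.113).

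No endothelial marker passed in Hereford. Of 18 listed genes 12 were measured, with a median of -0.12 log2. In limma 0 passed (2, TEK and CD34, had an unadjusted p under 0.05). Of all probes 7.14% were called there, and 12 genes are too few to tell 0 from that share. Their mean ratio per array ran from -0.36 to 0.28 in Hereford and from -0.37 to 0.62 in Holstein-Friesian, across 0 in both. That of the 7 markers ran from 0.14 to 0.63 in Hereford and from -0.19 to 0.41 in Holstein-Friesian. The difference between the lists was not tested. TEK, the receptor of ANGPT1, had the highest ratio among them, at 0.71 log2 (limma adjusted p = 0.0662). In Hereford 8 of the 12 were below 0. CD34 was lowest at -0.84, followed by ESAM (-0.44), EMCN (-0.39), ROBO4 (-0.36) and ERG (-0.32), none passing. CLDN5 (-0.05), TIE1 (-0.04), KDR (0.04) and FLT1 (0.08) lay near 0. In Holstein-Friesian 11 of the 12 were above 0, with a median of 0.16, against -0.01 over all probes. There 0 passed in limma (0 also at an unadjusted p under 0.05), where 6.45% of all probes were called. Hereford was lower than Holstein-Friesian in CD34 (-1.23 log2, limma adjusted p = 0.049) and ERG (-0.68, 0.0495), which stood at -0.08 and -0.35 in 1 dye, not passing.

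**Figure D5:**
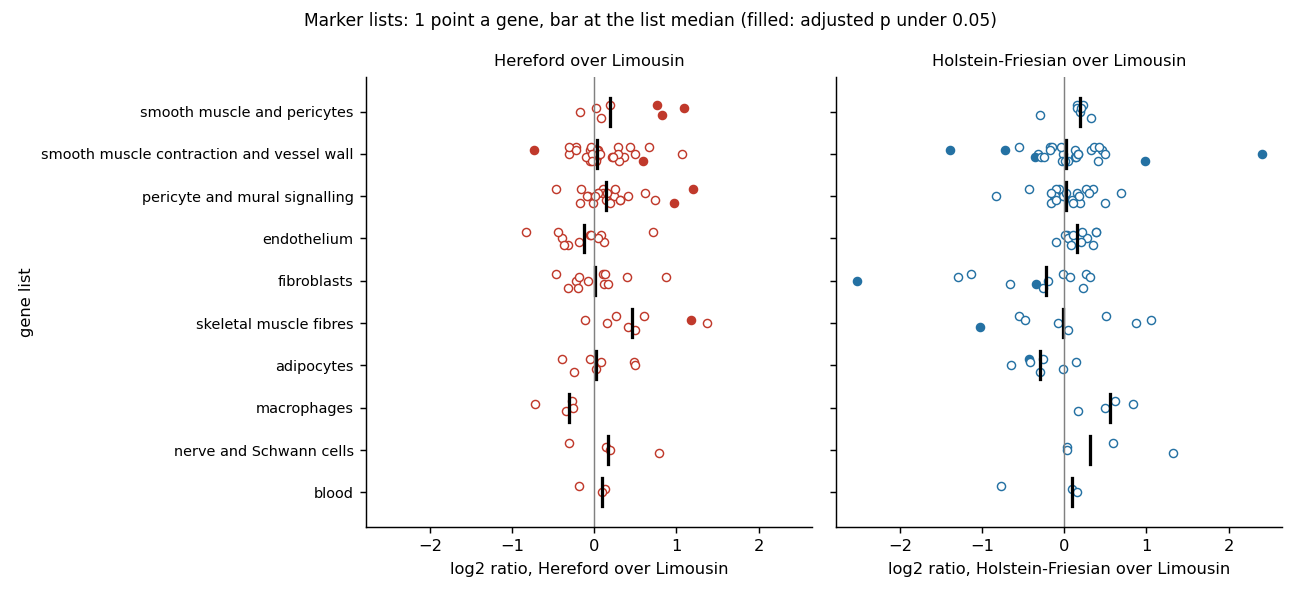
Log2 ratio over Limousin (x axis) of every measured gene in 10 lists (y axis), Hereford left and Holstein-Friesian right, with a bar at the list median and filled points for a limma adjusted p under 0.05. Filled points above 0 in Hereford are CNN1, MYL9, RGS5, ANGPT1, HIGD1B, KCNMB1 and MYH7, and the endothelial median is -0.12.

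Genes of other cell types in the samples are given beside the markers. Skeletal fibre genes had a mean ratio of 0.43 to 0.72 log2 per array in Hereford, every array above 0 as for the 7 markers, and of -0.22 to 0.44 in Holstein-Friesian. MYH7, the slow fibre myosin, rose in Hereford by 1.18 (limma adjusted p = 0.047) and in both breeds together by 1.12 (0.0458). MB, myoglobin, fell in Holstein-Friesian by 1.02 (limma adjusted p = 0.0167; -0.56 and 0.116 in 1 dye). ACTA1, the fibre actin close in sequence to ACTA2, stood at 0.26 log2 in Hereford and -0.55 in Holstein-Friesian. Fibroblast genes had array means of -0.28 to 0.54 in Hereford and -1.09 to -0.18 in Holstein-Friesian, where COL3A1 fell by 2.53 (limma adjusted p = 0.0125) and COL6A1 by 0.35 (0.0282; -0.0009 in 1 dye). Hereford was higher than Holstein-Friesian in COL3A1 by 2.30 log2 (limma adjusted p = 0.0409), in MB by 1.43 (0.0226) and in COL6A1 by 0.46 (0.0443). In 1 dye COL3A1 stood at 2.36 (limma adjusted p = 0.043), while MB at 0.50 (0.153) and COL6A1 at -0.23 (0.246) did not pass. Adipocyte genes ranged from -0.48 to 0.86 in Hereford and from -0.65 to 0.12 in Holstein-Friesian, where CIDEA fell by 0.42 (limma adjusted p = 0.047; -0.49 and 0.0786 in 1 dye). The CIDEA fall passed in 3 of 13 alternative settings and the MYH7 rise in Hereford in 4 of 13. Array means of blood genes ranged from -0.60 to 0.54 in Hereford and from -0.36 to 0.08 in Holstein-Friesian. The part of these cell types in the marker ratios was not tested.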

How the data were processed

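The members and gene lists were chosen with earlier results of these data known. The deposited scanner files give median spot and local background intensity, which the authors read out with Agilent Feature Extraction 10.7.3.1, as the submitters' processing notes and the headers state. The deposited values were log10 ratios of Cy5 over Cy3, equal (within 1e-06 on that scale) to the scanner's in 44407 of 44407 spots; 0 sample columns stayed unused. Background was corrected with normexp (offset 50) and arrays normalized with loess (span 0.3) in limma 3.58.1 (R 4.3.3); ratios were turned to breed over Limousin. Outlier spots and controls were left out and the spots of a probe averaged. Of 21475 probes, 17061 were well above background in at least 4 of 16 readings and were tested. RefSeq annotation of ARS-UCD2.0 gave a gene to the accessions of 8297 probes; the header names the older build Btau_3.1, so no coordinates are given. A gene was shown by its brightest kept probe.

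Hereford and Holstein-Friesian means were fitted over 8 arrays with lmFit and eBayes. The marbled comparison and the breed difference used 1 value per Limousin bull. Tests were two-sided, and the threshold was 0.05 after Benjamini-Hochberg adjustment across the 17061 probes. The fits were tested on simulated data. Same-numbered arrays share a Limousin bull per the labels' source names, and their deviations from breed means correlated at 0.0987 to 0.5. The highest correlation of a Hereford array with a Holstein-Friesian array of another number was -0.0206 to 0.144. For bull 4 it was 0.136, above the 0.0987 of its own pair, so for that bull the pairing rests on the labels. Readings in 1 dye used single channels after loess and Aquantile. All 9 markers, and list members past the threshold (up to 4 a list and comparison, by smallest p), were named; others are named as examples chosen after their values were seen. One list member past the threshold is not reported here. The alternatives were processed signals, deposited ratios, median centring, no background correction, other filters, left-out replicates, gene means, the block, single-breed fits and 1 dye.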

Additional observations from a re-analysis of the deposited data

Results flagged for a closer look

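CNN1 is singled out because its ratio to Limousin differed between the breeds by a test of the difference itself. Hereford minus Holstein-Friesian was 0.93 log2 (SD 0.29, limma adjusted p = 0.0384), higher for 4 of 4 Limousin bulls. Without each replicate in turn it lay between 0.83 and 1.03 with adjusted p-values of 0.0502 to 0.124. Dye and slide go with the breed in this difference and cannot be told apart from it. The value with each breed and its Limousin bulls read in 1 dye was 1.19 (limma adjusted p = 0.0474). That reading was chosen after seeing the data. It ran between slides, so a slide effect adds up in it and it does not separate breed from slide. Of 14 groups of 4 arrays examined for an array far from the rest (Dixon's ratio above its 95% critical value), none had one.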

How the results depend on the processing

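The number of markers called in Hereford was 3, with 0 to 2 when a replicate was left out, 2 with median centring (MYL9 lost, adjusted p = 0.0509 in limma) and 0 from the Hereford arrays alone. In Holstein-Friesian it was 0, and 1 with median centring. For both breeds together it was 0, and 1 with median centring (RGS5) and with the replicate block (RGS5). For Hereford minus Holstein-Friesian it was 1, with 0 when any replicate was left out and 0 without the replicate block (CNN1 adjusted p = 0.129 in limma); it was 2 with processed signals, deposited ratios, no background correction or probes above background in all readings, and in 1 dye (a reading chosen after seeing the data), and 3 with median centring and with the replicate block. The replicate block changed no other call of a marker.

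Median centring turned most of the weak directions. In Holstein-Friesian it gave ACTA2 -0.45, MYH11 -0.30, TAGLN -0.28, MYLK -0.23 and CNN1 -0.34 log2, with a marker median of -0.30 where all probes had -0.20. For both breeds it gave ACTA2 -0.017, MYH11 -0.13 and TAGLN -0.021. In Hereford it gave MYH11 0.035 (all probes 0.10), and for Hereford minus Holstein-Friesian MYH11 0.33, TAGLN 0.52 and MYLK 0.53 (all probes 0.36). TAGLN in Hereford was -0.018 with processed signals and with deposited ratios. In 1 dye TAGLN stood at 0.10 and COL6A1 at -0.23 for Hereford minus Holstein-Friesian.

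Left-out replicates turned TAGLN in Hereford (-0.056 to 0.15), MYH11 in Hereford (-0.51 to 0.085), in Holstein-Friesian (-0.10 to 0.40), in both (-0.10 to 0.18) and between breeds (-0.83 to 0.18), CNN1 in Holstein-Friesian (-0.10 to 0.34), ACTA2 between breeds (-0.10 to 0.09) and the marker median between breeds (-0.10 to 0.18). The cause was not tested. Of 378 single values of markers under an alternative, 323 kept direction and call, 25 turned, 18 lost a call and 12 gained one. Many of these could not turn. With 1 probe a marker, the other filters, gene means, the block and single-breed fits left its ratio unchanged. Deposited ratios repeated the marker values of processed signals. The 378 are therefore not independent checks. With median centring 315 probes were called in Hereford (87% of them higher), against 1218 (47.5%), and 6678 in Holstein-Friesian (29% higher), against 1100 (46.5%).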

Other observations

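Immune cells and nerve also lie around vessels, and their markers are given here as values. The 4 measured macrophage genes had array means of -0.64 to 0.05 log2 in Hereford and -0.07 to 0.93 in Holstein-Friesian. All 4 were below 0 on average in Hereford, with C1QA, a complement component, at -0.73 and CD14, a receptor for bacterial lipopolysaccharide, at -0.26. All 4 were above 0 in Holstein-Friesian, with C1QA at 0.83 and CD14 at 0.49. The number passing in limma was 0 in either breed, where 7.14% (Hereford) and 6.45% (Holstein-Friesian) of all probes were called. Each breed had 2 at an unadjusted limma p under 0.05 (smallest adjusted p = 0.0514, for CD14 in Holstein-Friesian). Nerve and Schwann cell genes had array means of -0.16 to 0.41 in Hereford and 0.22 to 0.83 in Holstein-Friesian, with PMP22, a protein of peripheral myelin, at 0.79 in Hereford and 1.32 in Holstein-Friesian. In each breed 0 of these 4 genes passed in limma and 1 had an unadjusted p under 0.05.

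The named genes whose ratios most resembled the mean of the 7 markers over 8 arrays, among 6686 compared, were AXIN1 (Pearson's r = 0.94), GCAT (0.938), FITM2 (0.928), CD320 (0.925) and ADAM10 (0.925). CD320 ranged from 0.03 to 1.09 log2 on the Hereford arrays and from -0.25 to 0.62 on the Holstein-Friesian arrays, lowest in both on the arrays of Limousin bull 4. The 8 arrays share 4 Limousin bulls and are not independent, so this is a description.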
